A study of Macaca fascicularis with 16 samples.

Results

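The genes described are 10 red-cell genes, chosen by symbol: the globins HBB, HBD, HBA1, HBA2 and HBM, the globin chaperone AHSP, the heme synthesis enzyme ALAS2, the membrane proteins SLC4A1 and EPB42, and the carbonic anhydrase CA1. Each had 1 entry in the deposited count tables, and the 10 were read out of 23602 gene symbols in all 16 libraries. The libraries came from peripheral blood mononuclear cells (PBMC) of 4 Mauritian-origin cynomolgus macaques, LG04, LG11, LG12 and LG15. All 4 animals received NKTT320, a monoclonal antibody to the invariant T cell receptor of natural killer T cells, and each was bled before treatment and 30 minutes, 2 hours and 1 day after it. The reference for each later bleed was therefore the same animal's own pre-treatment bleed, and untreated animals were not analysed here. PBMC had been separated from EDTA blood on a density gradient, snap frozen and extracted without further fractionation, and total RNA libraries were made after removal of ribosomal RNA.

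Hemoglobin is a tetramer of alpha-like and beta-like globin chains, each holding a heme group, and its mRNAs dominate the last stages of red-cell formation. Reticulocytes, the youngest circulating red cells, still carry this RNA, while mature red cells have lost their nucleus and most of it. Density gradients are meant to separate mononuclear cells from red cells, though some red cells can remain with the mononuclear layer.

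Libraries held 1417467 to 8582852 counts, so that 3 counts, taken as the floor, equalled 0.35 to 2.12 CPM (library-size-scaled counts), which covers counting error only. All 8 T cell, 8 B cell, 8 NK cell and 8 monocyte markers read as a check of the PBMC label had counts in every library. This check is weak, since 10 to 12 of 12 neutrophil markers also had counts in each library. The library labelled LG04 1 day was closer in its counts to LG15 1 day than to any LG04 library. Its chi-square per gene, which grows with depth, was 11.3 against LG15 1 day, and 88.1, 127 and 158 against LG04 at pre-treatment, 30 minutes and 2 hours. The other 3 LG04 libraries differed among themselves by 32.8 to 168, a range that holds these 3 values. The LG04 1 day library had 1846011 counts, against 6362826 to 8582852 in the other 3, so the 2 sets of values are not on 1 scale. Whether it was misplaced was not tested, and calls that change without it are given both ways.

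The 5 globins took between 0.0249% and 47.7% of all counts, a range of 1916-fold across the 16 libraries. In LG04 the globin share was 19.9% at pre-treatment, 37.4% at 30 minutes, 47.7% at 2 hours and 13.4% at 1 day. In LG11 it was 4.57% at pre-treatment, 10.1% at 30 minutes, 4.70% at 2 hours and 3.56% at 1 day. In LG15 it was 5.97% at pre-treatment, 3.29% at 30 minutes, 10.4% at 2 hours and 20.4% at 1 day. LG12 lay far below the other animals at every time, and its 4 values did not overlap with any of theirs. Its share was 0.0327% at pre-treatment, 0.0249% at 30 minutes, 0.0250% at 2 hours and 0.169% at 1 day.

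The animals did not peak at 1 common time: the highest share came at 2 hours in LG04, at 30 minutes in LG11, and at 1 day in LG12 and LG15. Within an animal the highest share was 3.56 times the lowest in LG04, 2.84 times in LG11, 6.80 times in LG12 and 6.20 times in LG15. Between animals before treatment, the highest share was 608 times the lowest. Counting error was small beside these differences, since the widest 95% Wilson interval relative to its value ran from 0.0228% to 0.0272%, for LG12 at 30 minutes. By time, the share averaged 7.62% ± 8.56 at pre-treatment, 12.7% ± 17.0 at 30 minutes, 15.7% ± 21.8 at 2 hours and 9.38% ± 9.24 at 1 day (SD, n = 4 each). The SD among animals exceeded the mean at the first 3 times and was close to it at 1 day.

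**Figure D1:**
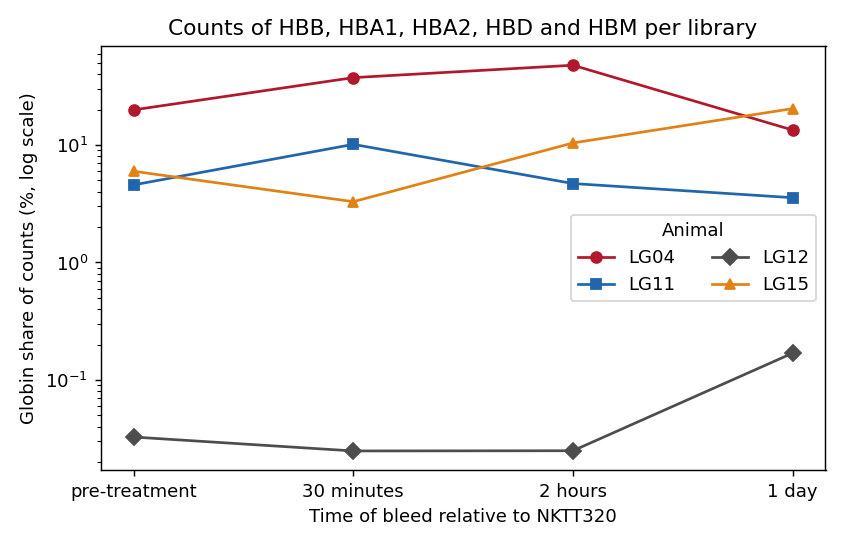
Share of all counts taken by the 5 globins (percent, log axis) by time of bleed, with 1 line for each animal and 1 point for each library. LG12 lies between 0.0249% and 0.169%, below the other 3 animals at every time, and the lines do not peak at 1 common time.

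The beta-like globins carried most of this signal. HBB, the adult beta chain, made up between 76.3% and 83.1% of the globin counts in every library. HBB in LG04 had 151684 CPM at pre-treatment, 290795 CPM at 30 minutes, 382597 CPM at 2 hours and 105290 CPM at 1 day. HBB in LG11 had 35308 CPM at pre-treatment, 80368 CPM at 30 minutes, 38991 CPM at 2 hours and 29580 CPM at 1 day. HBB in LG12 had 269 CPM at pre-treatment, 205 CPM at 30 minutes, 196 CPM at 2 hours and 1374 CPM at 1 day. All 4 LG04 values thus lay above all 4 LG11 values, and LG12 lay below both without overlap. HBB in LG15 had 49111 CPM at pre-treatment, 25372 CPM at 30 minutes, 80035 CPM at 2 hours and 159210 CPM at 1 day, which overlapped with LG11 and LG04.

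HBD, the delta chain, followed HBB closely, with 158 to 208 counts per 1000 HBB counts in all 16 libraries. HBE1, the embryonic epsilon chain and no member of the set, held a similarly narrow ratio, 21.4 to 33.3 per 1000 HBB counts. Delta globin is known to be silent in Old World monkeys, and epsilon globin is normally expressed only in the embryo. Counting used human gene models, and how far reads of the macaque beta gene were shared among HBB, HBD and HBE1 was not tested.

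The adult alpha chains come from HBA1 and HBA2, near-identical copies whose reads the counting could split, so that their sum is the safer value. HBA1 had 1.25 to 3.66 times the counts of HBA2. The summed alpha counts varied relative to HBB over time within animals. In LG04 they were 117 per 1000 HBB counts at pre-treatment, 99.5 at 30 minutes, 76.3 at 2 hours and 66.5 at 1 day. In LG11 they were 119 at pre-treatment, 87.7 at 30 minutes, 40.4 at 2 hours and 45.5 at 1 day. LG15 went the other way, with 47.9 at pre-treatment, 105 at 30 minutes, 103 at 2 hours and 103 at 1 day. LG12 had 26.6 at pre-treatment, 44.9 at 30 minutes, 69.4 at 2 hours and 53.4 at 1 day, from 18 to 104 alpha counts per library. No single direction over time was therefore shared by the animals.

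HBM, the mu chain of the alpha cluster, was the least abundant globin of the set. It had 41.2 CPM at pre-treatment, 50.8 CPM at 30 minutes, 47.3 CPM at 2 hours and 7.04 CPM at 1 day in LG04. The other animals were lower at the first 3 times, with 1.10 to 4.38 CPM in LG11 and 3.28 to 15.5 CPM in LG15 over all times. In LG12 it had 1 count in all, in the 1 day library.

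AHSP, the chaperone that holds free alpha chains, had 91.6 CPM at pre-treatment, 158 CPM at 30 minutes, 189 CPM at 2 hours and 15.2 CPM at 1 day in LG04. It lay between 2.15 and 11.0 CPM in LG11 and between 5.46 and 27.2 CPM in LG15, so the 1 day library of LG04 overlapped with LG15 while the 3 earlier ones did not. LG12 had 3 AHSP counts over its 4 libraries.

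ALAS2, the erythroid enzyme of the first step of heme synthesis, was the highest of the non-globin members. In LG04 it had 7351 CPM at pre-treatment, 14286 CPM at 30 minutes, 16622 CPM at 2 hours and 3473 CPM at 1 day. It lay between 908 and 2075 CPM in LG11, between 4.59 and 46.6 CPM in LG12 and between 886 and 5513 CPM in LG15. LG04 overlapped with LG15 only through its 1 day value.

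SLC4A1 encodes band 3, the anion exchanger that anchors the red-cell skeleton, and EPB42 encodes protein 4.2, which binds band 3. SLC4A1 in LG04 had 780 CPM at pre-treatment, 1333 CPM at 30 minutes, 1324 CPM at 2 hours and 304 CPM at 1 day. It lay between 19.95 and 47.5 CPM in LG11 and between 98.3 and 468 CPM in LG15. SLC4A1 was thus the member in which LG11 and LG15 did not overlap at any time, and LG12 had 8 counts of it in all. EPB42 in LG04 had 198 CPM at pre-treatment, 366 CPM at 30 minutes, 397 CPM at 2 hours and 61.8 CPM at 1 day, against 9.91 to 18.8 CPM in LG11 and 17.8 to 90.3 CPM in LG15. CA1, the abundant red-cell carbonic anhydrase, had 1475 CPM at pre-treatment, 2842 CPM at 30 minutes, 3140 CPM at 2 hours and 742 CPM at 1 day in LG04. It lay between 106 and 263 CPM in LG11, 2.04 and 15.5 CPM in LG12, and 252 and 1490 CPM in LG15.

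Per gene length, on the FPKM scale of the deposited tables, HBB ranked highest, followed by HBD and then HBA1, among the 10 in each of the 13 libraries that could be ranked. HBA2, ALAS2 and CA1 took ranks 4 to 6, and AHSP, SLC4A1, HBM and EPB42 ranks 7 to 10. HBB is listed at 0 FPKM in LG04 at pre-treatment, 30 minutes and 2 hours, where its counts were the highest of all libraries. HBB was therefore read from counts.

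**Figure D2:**
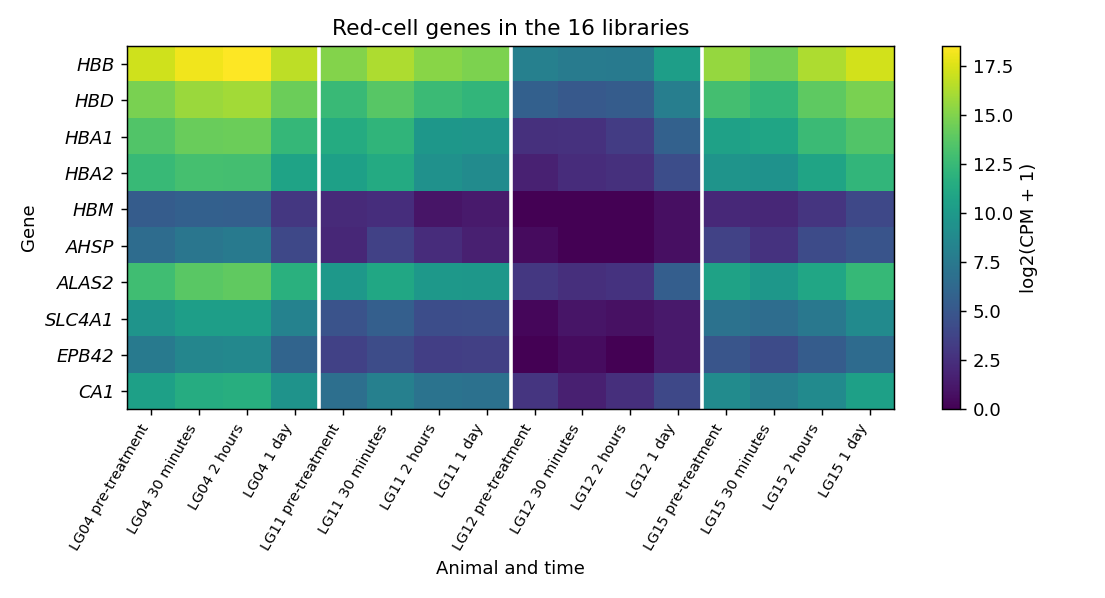
Level of each of the 10 genes, as log2(CPM + 1) by colour, in the 16 libraries grouped by animal and, within an animal, by time. The LG04 columns are the brightest up to 2 hours, with HBB at 382597 CPM, and the LG12 columns are the darkest.

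The question set by the design was whether the level of these genes changed after NKTT320 within animals. With edgeR's quasi-likelihood test, with animal as a block, 0 of the 10 genes passed an adjusted p of 0.05 in any comparison of 2 times, and 0 had an unadjusted p below 0.05. The percentage of all 11545 genes tested that passed was 0 at 30 minutes and 0 at 2 hours against pre-treatment, and 0.225 at 1 day against pre-treatment. It was 0 for 2 hours against 30 minutes, 0.104 for 1 day against 2 hours and 0.0433 for 1 day against 30 minutes. Of the 11545 genes, 292, 858 and 1570 had an unadjusted p below 0.05 at 30 minutes, 2 hours and 1 day against pre-treatment. For 2 hours against 30 minutes, 1 day against 2 hours and 1 day against 30 minutes there were 531, 1455 and 1510. The test for any difference among the 4 times called 0 members, beside 0.104 percent of all genes. DESeq2 also called 0 members in each of these comparisons, with 3 at an unadjusted p below 0.05 at 1 day against pre-treatment, beside 9.06 percent of all genes, and 0 in the others.

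All 10 fitted changes from pre-treatment were above 0 at each later time, but none was larger than its error allowed. Their median on the log2 scale was 0.73 at 30 minutes (range 0.46 to 0.99), 0.88 at 2 hours (0.50 to 1.23) and 1.28 at 1 day (0.33 to 1.76). The median over all genes was 0.02 at 30 minutes and 0.02 at 2 hours. These 3 comparisons share their pre-treatment libraries. HBB had a log2 change of 0.63 ± 0.81 (SE) at 30 minutes, with a 95% interval from -1.11 to 2.37. At 2 hours it was 0.91 ± 0.81, with an interval from -0.85 to 2.66. At 1 day it was 1.62 ± 0.83, with an interval from -0.17 to 3.40 and an adjusted p of 0.433 in edgeR's quasi-likelihood test. Over the 10 genes and 3 comparisons the lowest bound was -1.73, for AHSP at 1 day, and the highest 4.0, for HBA1 at 1 day. With 4 animals, increases of several-fold thus lay inside the intervals. How large a decrease they allowed differed by gene and time.

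The animals did not share a direction. At 1 day against pre-treatment, 0 of the 10 genes were higher in LG04 and 1 in LG11, while 10 were higher in LG12 and 10 in LG15. HBB differed by -0.34 in LG04, -0.19 in LG11, 2.41 in LG12 and 2.19 in LG15 on the log2 scale at 1 day. At 30 minutes, 10 of 10 were higher than at pre-treatment in LG04 and 10 in LG11, against 4 in LG12 and 1 in LG15. At 2 hours the numbers were 10 in LG04, 4 in LG11, 3 in LG12 and 9 in LG15. The LG12 numbers include HBM, AHSP, EPB42 and SLC4A1, which had 0 to 3 counts per library there. AHSP in LG12 was taken as higher at 1 day on 1 count, against 2 counts in the deeper pre-treatment library. Ties at 0 counts, such as HBM in LG12 at 30 minutes and 2 hours, were taken as not higher. HBA1 at 30 minutes was the 1 case in which all 4 animals lay above their own pre-treatment value, by 1.37 in LG04, 0.81 in LG11, 0.12 in LG12 and 0.24 in LG15. The LG12 value rested on 20 counts at pre-treatment and 10 in the shallower library at 30 minutes. HBA2, the near-identical copy, changed by -0.21 in LG15 at 30 minutes.

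Without the 1 day library of LG04, the fitted changes at 1 day against pre-treatment were larger but still uncalled. HBB then had a log2 change of 2.09 ± 0.72 with an adjusted p of 0.274, and the smallest adjusted p of the 10, that of ALAS2, was 0.226 (edgeR's quasi-likelihood test). In that fit 8 of the 10 had an unadjusted p below 0.05, beside 12.4 percent of all genes, and 0.151 percent of all genes passed the adjusted threshold.

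**Figure D3:**
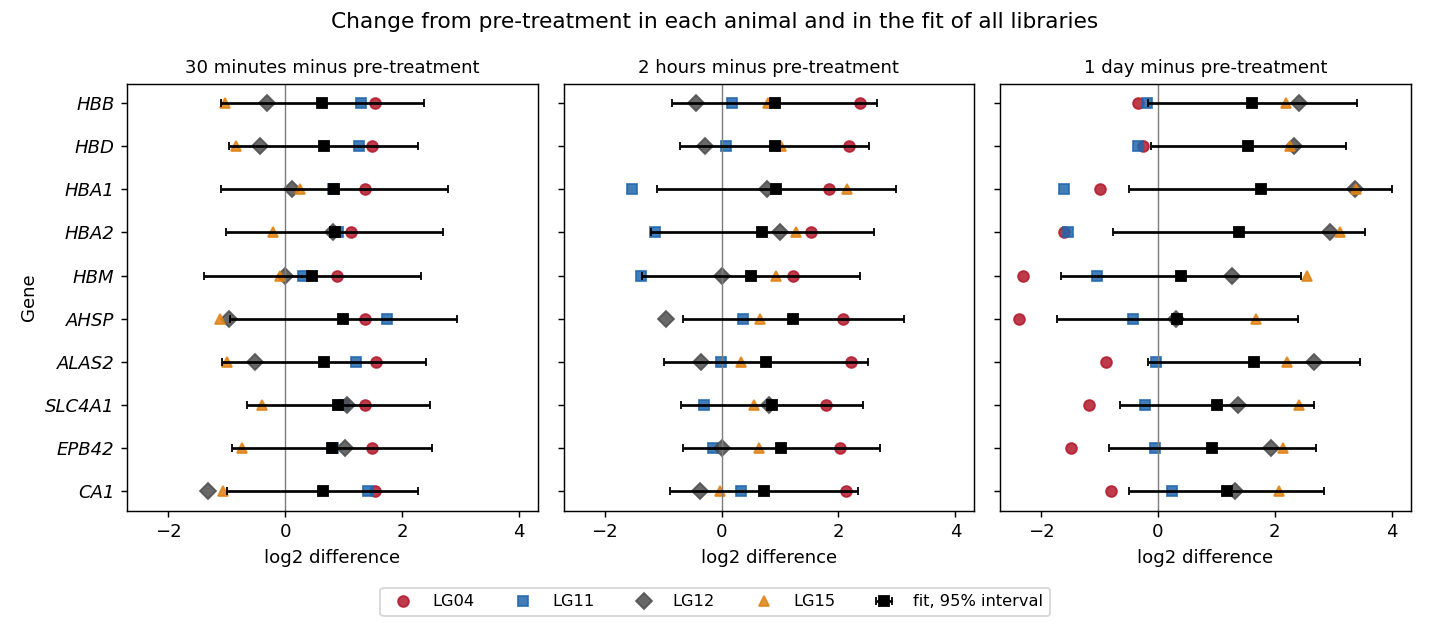
Difference from pre-treatment on the log2 scale for each gene at 30 minutes, 2 hours and 1 day; coloured points are single animals and black squares the fit of all libraries with its 95% interval. Every interval includes 0, and at 1 day LG12 and LG15 lie above 0 while LG04 lies below it; the LG12 points of HBM, AHSP, EPB42 and SLC4A1 rest on 0 to 3 counts per library.

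With LG12 among them, the animals differed from one another far more than the times did. Differences between animals accounted for a median of 92.1% of the variance of log2 CPM in the 10 genes (84.8% to 94.8%), and differences between times for 0.744% (0.165% to 0.960%). The time share covers only the means of the 4 times. Changes over time that differed between animals fall in the rest, 4.57% to 15.1%. LG12 lay farthest from the others: the mean log2 CPM of HBB was 18.2 in LG04, 15.2 in LG11, 8.14 in LG12 and 15.9 in LG15. Between the bleeds of LG15 alone, HBB ranged over 3.22 on that scale. These shares of variance were not computed without LG12. Over all genes tested, the medians were 46.4% between animals and 12.1% between times. All 10 genes passed the test for any difference among the 4 animals, with adjusted p from 8.5e-05 to 5.2e-04 in edgeR's quasi-likelihood test, beside 44.5 percent of all genes. Without LG12, 7 of the 10 passed, beside 11.2 percent of all genes, and HBB (adjusted p 0.0874), HBA1 (0.0893) and HBA2 (0.114) did not. These p-values rest on the spread between the 4 bleeds of an animal and describe these 4 animals only. In bulk samples, fewer cells of a type and less RNA per cell cannot be told apart.

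LG04 exceeded LG11 in 10 of 10 genes (18.7 percent of all genes passed in that pair), with a median log2 difference of 4.34. The difference was smallest for HBA2, 3.04 ± 0.90, and largest for SLC4A1, 5.89 ± 0.77. With LG12 left out of that fit, 7 of 10 passed (12.8 percent of all genes), and HBB, HBA1 and HBA2 missed the threshold at adjusted p of 0.0518, 0.0505 and 0.0703. DESeq2 called 9 of 10 for LG04 against LG11, with a highest adjusted p of 0.196, beside 2608 of 18814 genes. LG04 exceeded LG12 in 10 of 10 genes (36.4 percent of all genes), by 10.26 ± 1.18 for HBB and 10.94 ± 1.19 for ALAS2. LG12 was below LG15 in 10 of 10 genes (26.9 percent of all genes), by -7.71 ± 1.04 for HBB. Without the 4 shallowest libraries, 8 of 10 passed there in edgeR's quasi-likelihood test, beside 377 of 12327 genes. The highest adjusted p of the 10 was then 0.114. LG11 exceeded LG12 in 8 of 10 (27.8 percent of all genes), by 7.08 ± 1.04 for HBB and 4.71 ± 0.87 for CA1. In that pair HBM had an adjusted p of 0.0848 and AHSP one of 0.0740 in edgeR's quasi-likelihood test. Without the 1 day library of LG04 both passed, at 0.0272 and 0.0256, and 10 of 10 were called (29.3 percent of all genes). DESeq2 also called 10 of 10, beside 19.3 percent of all genes. For HBM, AHSP, EPB42 and SLC4A1 the LG12 side held 1, 3, 3 and 8 counts over 4 libraries, so their fitted differences depend on the prior count and no fold is given.

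The animals next to each other in level were harder to separate. In LG11 against LG15, 1 of 10 genes was called (14.0 percent of all genes): SLC4A1 was lower in LG11 by -3.07 ± 0.72, with an adjusted p of 0.0142 in edgeR's quasi-likelihood test. Without the 1 day library of LG04, 3 were called (15.6 percent of all genes): SLC4A1 at an adjusted p of 0.0043, EPB42 at 0.0383 and CA1 at 0.0386, each lower in LG11. HBB differed there by -0.64 ± 0.84 with all libraries, with a 95% interval from -2.44 to 1.17. In LG04 against LG15, 0 of 10 were called (0.0173 percent of all genes) although 10 had an unadjusted p below 0.05, as did 9.23 percent of all genes. DESeq2 called 7 of 10, beside 1.63 percent of all genes. Their median log2 difference was 2.70. Without the 1 day library of LG04, 9 of 10 were called in that pair, all but HBA1 (4.32 percent of all genes), and the median was 3.43.

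Markers of some other blood cells also differed between animals. Whether they moved with the globins was not tested. The 12 platelet markers summed to 477, 2959, 5667 and 31005 CPM of the non-globin counts in LG04 from pre-treatment to 1 day, and to 11858, 2249, 6071 and 26934 in LG15. LG11 lay between 164 and 933 and LG12 between 168 and 1237, both with their highest value at 1 day. Of these 12 markers 9 to 11 had counts in a library, and GP9 was at 0 in some. The 12 neutrophil markers, of which 10 to 12 had counts, ran from 223 to 7412 in LG04 and from 232 to 3342 in LG15. They ran from 310 to 645 in LG11 and stayed between 80.4 and 122 in LG12. The 8 B cell markers summed to 920 to 1165 in LG12, above the other animals, which lay between 158 and 473 without overlap. The 8 monocyte markers summed to values between 1027 and 4705 for LG04, 2886 and 8790 for LG11, and 1182 and 6850 for LG15, and between 146 and 1594 for LG12. The part of these cells in the differences between animals was not tested.

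Relative to HBB, the members did not keep 1 fixed proportion across animals. LG12 is left out here because of its low counts. AHSP had 0.604, 0.542 and 0.495 counts per 1000 HBB counts in LG04 at pre-treatment, 30 minutes and 2 hours, and 0.144 at 1 day. It lay between 0.0727 and 0.136 in LG11 and between 0.171 and 0.238 in LG15, so the first 3 LG04 libraries were above both. EPB42 showed the same order, with 1.30, 1.26 and 1.04 in the first 3 LG04 libraries and 0.587 at 1 day, against 0.233 to 0.355 in LG11 and 0.522 to 0.701 in LG15. ALAS2 had 48.5, 49.1 and 43.4 per 1000 HBB counts in the first 3 LG04 libraries and 33.0 at 1 day, and 23.9 to 30.7 in LG11 and 24.6 to 34.9 in LG15.

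SLC4A1 and CA1, like AHSP and EPB42, were lowest in LG11. SLC4A1 had 2.89 to 5.14 per 1000 HBB counts in LG04, 0.512 to 0.718 in LG11 and 2.14 to 3.87 in LG15. CA1 had 7.05 to 9.77 in LG04, 3.01 to 4.06 in LG11 and 5.72 to 10.2 in LG15, so LG11 lay below both other animals for each gene. Among the 9 members other than HBB, the 1 day library of LG04 lay below the other LG04 libraries in 8 and inside their range in 0, and inside the LG15 range in 6.

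**Figure D4:**
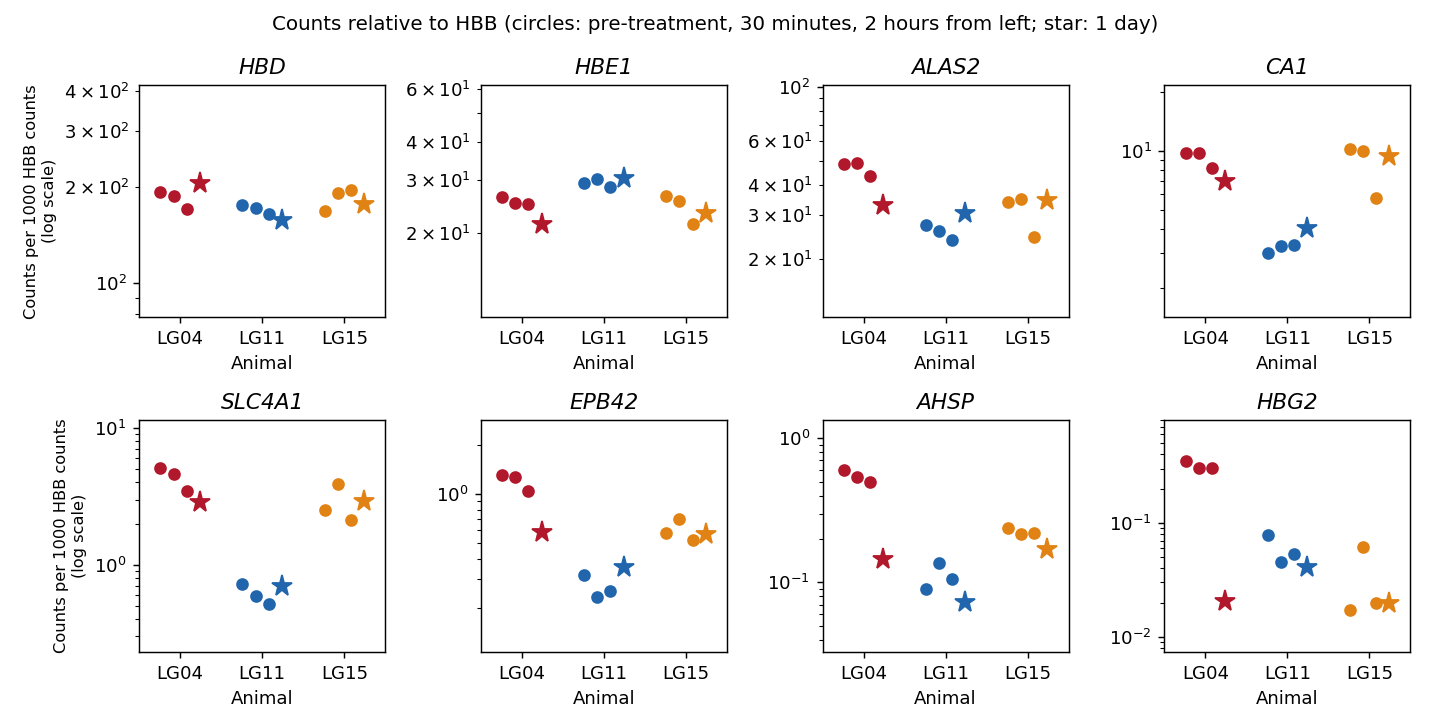
Counts of 8 genes per 1000 HBB counts (log axes) in LG04, LG11 and LG15; circles are pre-treatment, 30 minutes and 2 hours from left to right and stars are 1 day. HBD and HBE1 are nearly level, and for AHSP, EPB42 and HBG2 the LG04 star lies well below the LG04 circles, with AHSP at 0.144 against 0.495 to 0.604.

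The other globins repeated the differences between animals. Of 5 listed, HBE1, HBG2 and HBQ1 were tested, and 3 of 3 passed the test among animals while 0 of 3 passed in any comparison of times. HBG2, a fetal gamma chain, had 52.5, 87.5 and 115 CPM in LG04 at pre-treatment, 30 minutes and 2 hours and 2.17 CPM, or 4 counts, at 1 day. It lay between 1.21 and 3.65 CPM in LG11 and between 0.836 and 3.17 CPM in LG15, and LG12 had 0 counts. HBQ1, the theta chain, had 21.1, 24.4 and 18.9 CPM in the first 3 LG04 libraries and 1.08 CPM at 1 day, against at most 1.10 CPM in LG11 and 3.17 CPM in LG15. HBG1 and HBZ, at 45 counts or fewer per library, were not tested.

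The remaining lists, of red-cell genes and of heme breakdown and scavenging, were not called over time by edgeR either. Of 72 tested, 0 passed its adjusted threshold in a comparison of 2 times or among the 4 times. In a comparison of 2 times, 1 to 11 of the 72 had an unadjusted p below 0.05, beside 292 to 1570 of all 11545 genes. DESeq2, with 78 of the list genes tested, called CD163 at 2 hours and CD163, RHAG and SLC40A1 at 1 day against pre-treatment. It called HP at 1 day against 30 minutes, and CD163 and RHAG among the 4 times. These genes were named after their values were seen, and the directions of their calls are not given here. CD163, SLC40A1 and HP belong to the heme breakdown and scavenging list, and CD163 is also among the monocyte markers. Of all 18814 genes, DESeq2 called 77 at 2 hours and 387 at 1 day against pre-treatment. It called 327 at 1 day against 30 minutes and 433 among the 4 times. Among animals, 12 of 16 genes of heme synthesis and iron supply passed, 14 of 15 of the membrane and skeleton, 9 of 9 erythroid transcription factors with the EPO receptor, 22 of 23 red-cell enzymes and maturation genes, and 7 of 9 genes of heme breakdown and scavenging. The share of all genes was 44.5 percent. In LG04 against LG11, where 18.7 percent of all genes passed and 10.5 percent were higher, 10 of 16 heme and iron genes passed, 9 higher and 1 lower, with a median log2 difference of 1.61. FECH, which inserts iron into heme, was higher in LG04 by 3.67 ± 0.71. SLC25A39, a mitochondrial carrier, was higher by 4.13 ± 0.79. TFRC, the transferrin receptor that dividing lymphocytes also use, differed by 0.34 ± 0.22 and did not pass.

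In the membrane list 14 of 15 genes were higher in LG04 than in LG11, with a median of 3.87. EPB41, protein 4.1 of the membrane skeleton, had a log2 difference of 3.09 ± 0.55, and STOM, stomatin, one of 3.08 ± 0.33. Of the transcription factors 7 of 9 were higher, with a median of 3.88: TAL1 had 4.29 ± 0.63 and NFE2 3.88 ± 0.59, both also expressed in megakaryocytes. LMO2 at -0.44 ± 0.39 did not pass. Of the enzymes and maturation genes 21 of 23 were higher, with a median of 3.45. UBE2O, a ubiquitin enzyme of reticulocyte remodelling, had 4.53 ± 0.69 and BNIP3L, needed for clearing mitochondria, 2.96 ± 0.64. In the heme breakdown list 2 of 9 were higher, beside 10.5 percent of all genes, and the median was -0.02. FTL, ferritin light chain, had 1.31 ± 0.37, and CD163, the macrophage receptor for hemoglobin bound to haptoglobin, -1.31 ± 0.57, which did not pass.

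The genes most like HBB outside the set were ranked by Pearson's r of log2 CPM over the 16 libraries. The 10 highest included HBE1 (r = 0.999), PAQR9 (0.996), CA2 (0.981), SOX6 (0.977), TRIM58 (0.976), DNAI2 (0.974), IFIT1B (0.973) and TMOD1 (0.969). Among the members, r with HBB was highest for HBD and ALAS2, 1.00 and 0.998, and lowest for HBM, 0.903. The 16 libraries are 4 bleeds of 4 animals and share the gap between LG12 and the others, so these values are descriptions. Within animals, after removing each animal's mean, r was 0.991 for HBE1, 0.914 for DNAI2 and 0.754 for SOX6. Without LG12, 3 of the 10 genes stayed among the 10 most alike.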

How the data were processed

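PBMC of 4 macaques at 4 times gave 16 libraries of stranded total RNA, sequenced with single reads of 75 cycles per the labels' protocols. The deposited counts are whole numbers per gene without any scaling. The deposited FPKM values were scaled by the authors to gene length and library size, by a program that the sources used here do not name. Tools named in the submitters' processing notes include STAR and HTSeq, and the builds named are the human GRCh37 and hg19. Gene identifiers are human Entrez numbers per the file headers: reads of macaque RNA were assigned to human genes, which leaves near-identical copies uncertain. The strand setting used for counting is not given in the sources used here.

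Tables made per animal were read, with entries summed by symbol. Of 24 count columns in the series-wide tables, 23 matched them; the LG04 column at 2 hours held the LG04 values of 1 day, and series-wide tables were not used. The smallest chi-square per gene between any 2 libraries was 5.15. CPM are counts divided by the library total and scaled by a constant. Sequences and genome positions were not used here.

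Tests used edgeR 4.0.16 in R 4.3.3: TMM scaling, a filter on low counts by time (11545 genes kept, all 10 members among them), a quasi-likelihood fit of time and animal with 9 residual degrees of freedom, and Benjamini-Hochberg adjustment over all genes at 0.05. Standard errors come from the F statistic. Animal entered as a block since each animal gave all 4 bleeds. Deviations from the time means correlated above 0.1 in 23 of 24 pairs of libraries of 1 animal (median 0.56). The median between animals was -0.22, but removing the means of the same 4 animals by itself pushes these values below 0. Alternatives were no block, RLE scaling, scaling without globin counts, DESeq2 1.42.0, no filter, leaving out each animal, the 1 day library of LG04 or the 4 shallowest libraries, summed HBA1 and HBA2, and FPKM. The scripts were tested on simulated data. Named genes were the 10 members, the 4 most abundant tested genes of each list, and the 10 genes with the highest correlation with HBB; a few of these are not reported here. The members and lists were chosen with earlier results of these data known.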

Additional observations from a re-analysis of the deposited data

Results flagged for a closer look

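In groups of 4 animals at 1 time, Dixon's test asks whether 1 sample lies far from the other 3 (at its 95% critical value). It was run on values without a log, where the highest value largely sets the range. A sample far below the others is then hard to flag. Of 44 groups tested, 16 were past that value, and in each the sample was LG04. LG12 was flagged in no group, though HBB at pre-treatment was 269 CPM there, against 35308 to 151684 CPM in the other animals. Chance flags about 1 in 20 groups if values are normally distributed, which was not checked. The members move together, so these are not 16 separate signals. At pre-treatment the LG04 values were 41.2 CPM for HBM, 91.6 CPM for AHSP, 780 CPM for SLC4A1 and 198 CPM for EPB42. At 30 minutes LG04 stood apart with 50.8 CPM for HBM, 14286 CPM for ALAS2, 158 CPM for AHSP, 1333 CPM for SLC4A1, 2842 CPM for CA1 and 366 CPM for EPB42. At 2 hours the values were 47.3 CPM for HBM, 16622 CPM for ALAS2, 189 CPM for AHSP, 1324 CPM for SLC4A1, 3140 CPM for CA1 and 397 CPM for EPB42. No group at 1 day was past the critical value.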

How the results depend on the processing

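In every alternative run, 0 members were called in any comparison of times. The replicate block (animal) changed no call: without it, 0 members were called, but 3 fitted log2 changes at 1 day against pre-treatment turned round, to -0.776 for HBM, -1.04 for AHSP and -0.318 for EPB42. Leaving out 1 animal at a time turned round 7 fitted changes. At 1 day against pre-treatment, where LG15 was the animal whose absence turned the sign, they ran from -0.29 to 2.39 for HBA2, -1.70 to 1.17 for HBM, -1.55 to 0.97 for AHSP, -0.49 to 1.66 for SLC4A1 and -0.49 to 1.495 for EPB42. CA1 at 30 minutes ran from -0.0037 (without LG11) to 1.07, and HBM at 2 hours from -0.40 (without LG04) to 1.16. Calls of members over the 6 animal pairs, 39 in all, ran from 8 (without LG12) to 30 (without LG15). Each such fit keeps 3 pairs; those kept without LG12 held 11 calls with all animals, and LG04 against LG11 fell to 7 of 10 without LG12, against 10 with it. The 1 day library of LG04 left out gave 52 calls and DESeq2 48. Of the 10 genes most like HBB, 3 (without LG12) to 9 (without LG15) stayed in the list. The median globin share was 5.34% of counts and 16.3% of summed FPKM, a value that counts HBB as 0 in 3 LG04 libraries. Over all genes, calls at 1 day against pre-treatment were 26, and 387 with DESeq2. With 4 animals and totals down to 1417467 counts, the low LG12 values limit what can be said of HBM, AHSP, EPB42 and SLC4A1.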
